A study of Arabidopsis thaliana and Marchantia polymorpha and Mesotaenium endlicherianum with 120 samples.

Results

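The comparison described here set the liverwort line Mppif-1 against the accession TAK-1 in dim white light, gene by gene, at 16 °C and at 24 °C. It took every Mppif-1 and TAK-1 library grown at 10 micromoles of photons per square metre per second, which gave 12 of the 120 libraries of the series and 12 of its 48 libraries of Marchantia polymorpha. All 12 were made from thalli 10 days after germination under continuous white light, with 3 replicates for TAK-1 at 16 °C, 3 for TAK-1 at 24 °C, 3 for Mppif-1 at 16 °C and 3 for Mppif-1 at 24 °C. TAK-1 is a male laboratory accession and serves as the control line, and Mppif-1 is the line named for MpPIF. The remaining Marchantia libraries hold the same lines at a light level of 100 and the lines Mpphy-1 and Mphy5-1 at both light levels. They also entered the fit of all 48 libraries that gave the filter, scaling and spread estimate of the main tests. The light 100 libraries of Mppif-1 and TAK-1 further gave gene lists and a test of light. Mpphy-1 and Mphy5-1 are otherwise cited only for levels. The labels used here do not say how the Mppif-1 allele was made, whether the line is 1 clone, or whether replicates came from separate cultures. The p-values set differences against the spread between replicates, estimated over all 48 Marchantia libraries, and that spread may be technical.

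PIFs, phytochrome-interacting factors, are basic helix-loop-helix transcription factors. In flowering plants they gather in darkness or shade, bind regulatory DNA of growth and pigment genes, and are inactivated when red light converts phytochrome to its active form. In Arabidopsis the same proteins also carry warm temperature into gene expression and elongation growth. Marchantia has a much smaller set of phytochromes and PIFs than flowering plants, and MpPIF acts with the liverwort phytochrome in light responses. The comparison therefore asks how far transcript levels in dim light differ between the line named for MpPIF and the control, and whether that difference changes between a cool and a warm temperature. Genes are given by the identifiers of the deposited table, which are paired with no names in the files used, so no role is given for any of them. The targeted gene could not be looked up for the same reason, and its level as a check on the line labels is not reported here.

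The 12 libraries held 41127901 to 44001970 counted reads each. Between 15749 and 16098 of the 20574 listed genes had at least 1 count in a library, and the 10 most abundant genes took 9.11% to 11.8% of the counts. The mean correlation of a library with the others of its group ran from 0.9908 to 0.9963. The lowest value belonged to TAK-1 replicate 3 at 24 °C, which stood apart from its group in a limited set of genes described further on. Levels below are in CPM, the count of a gene per fixed number of counts in its library, with library sizes scaled by the trimmed mean of M values, and differences between groups are log2 ratios with the standard error of edgeR's fit.

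In the cool, the lines differed in a large share of the transcriptome. At 16 °C, 6662 of 15432 genes tested passed an adjusted p of 0.05 in edgeR's quasi-likelihood test, which is 43.2%, with 3381 higher and 3281 lower in Mppif-1. The numbers in each direction were close, but the sizes were not. The called genes that were lower had a median log2 difference of -0.60, against 0.38 for those that were higher. Past an absolute log2 difference of 1 there were 1090 lower genes and 421 higher ones, together 9.79% of the genes tested. Over all genes tested, the 5th percentile of the difference lay at -1.79 and the 95th at 1.04.

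At 24 °C the lines were closer. There, 3168 genes were called, or 20.5%, with 1604 higher and 1564 lower in Mppif-1. Past a log2 difference of 1 stood 347 lower and 102 higher genes, together 2.91%. The 5th and 95th percentiles over all genes were -0.96 and 0.67. The count of higher genes past that size depended on TAK-1 replicate 3 at 24 °C: without it, 174 genes were higher and 288 lower, out of 2652 called. The averaged line difference over both temperatures was called for 6441 genes, 41.7% of those tested, of which 3192 were higher and 3249 lower, and 647 were lower and 176 higher past a log2 of 1. At light 100, too, more of the 15432 genes were called at 16 °C than at 24 °C, 6339 against 3763. Past a log2 of 1, 1143 and 210 were lower there and 278 and 249 higher. The change between the temperatures at light 100 was called for 3073 genes.

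**Figure D1:**
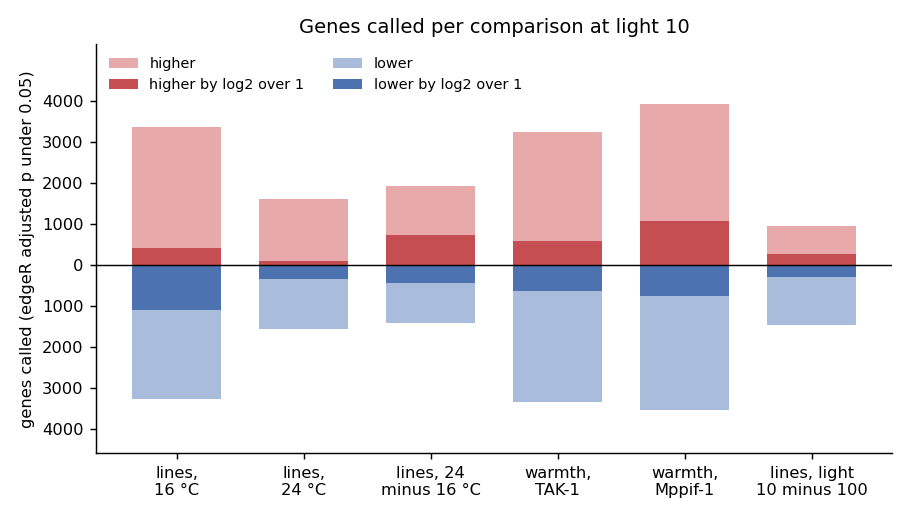
Genes called at an edgeR adjusted p under 0.05 in 6 comparisons at light 10, with higher genes above the axis and lower genes below it; dark segments are genes past an absolute log2 difference of 1. The line comparison at 16 °C holds 421 higher and 1090 lower genes past that size, and the one at 24 °C 102 and 347.

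The gene that was most raised in Mppif-1 at 16 °C was Mp5g05730. Its level was 62.4, 45.4 and 54.8 CPM in the 3 Mppif-1 libraries and 1.06, 5.49 and 2.16 CPM in the TAK-1 libraries. The log2 difference was 4.22 ± 0.47 (SE, n = 3 against 3, edgeR adjusted p = 4.24e-09). Genes were named only where replicates did not overlap in the comparison that names them, so such a lack of overlap is no result. Leaving out TAK-1 replicate 2 at 16 °C moved it to 5.07. At 24 °C the same gene stood at 2.63, 2.00 and 2.22 CPM in Mppif-1 and at 1.43, 1.18 and 3.01 CPM in TAK-1, where the groups overlapped (log2 difference 0.28 ± 0.45, edgeR adjusted p = 0.748). High levels of Mp5g05730 were thus seen in the cool Mppif-1 libraries and in none of the other 9.

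Mp7g04750 was the next highest at 16 °C, with 48.6, 45.7 and 53.5 CPM in Mppif-1 against 3.19, 4.12 and 3.55 CPM in TAK-1. The log2 difference was 3.77 ± 0.43 (edgeR adjusted p = 8.40e-09). At 24 °C Mppif-1 had 12.1, 6.28 and 3.58 CPM and TAK-1 3.12, 3.15 and 2.78 CPM, a log2 difference of 1.28 ± 0.42 (edgeR adjusted p = 0.0259). The margin between the lines was thus much smaller in the warm. In Mpphy-1, the line named for phytochrome, the 16 °C libraries at light 10 held 145, 188 and 232 CPM of this gene, while those of Mphy5-1 held 7.65, 7.51 and 4.47 CPM. Mpphy-1 thus had the highest levels of Mp7g04750 among the 4 lines at 16 °C and light 10.

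The genes that were most reduced at 16 °C were nearly absent from Mppif-1 there. Mp5g17570 was at 0.0737, 0.0741 and 0.203 CPM in Mppif-1 and at 12.5, 11.5 and 13.1 CPM in TAK-1, a log2 difference of -6.70 ± 0.40 (edgeR adjusted p = 2.46e-15). Without Mppif-1 replicate 3 at 16 °C it was -7.33. Warmth raised the gene in both lines, to 26.5, 43.8 and 43.3 CPM in Mppif-1 and 75.3, 79.3 and 73.2 CPM in TAK-1. At 24 °C the log2 difference was -1.0 ± 0.20 (edgeR adjusted p = 0.000279). Mpphy-1 was also low at 16 °C and light 10, with 0.118, 0.267 and 0.0457 CPM, whereas Mphy5-1 held 17.9, 19.3 and 23.0 CPM.

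Mp8g01650 behaved alike in the cool, with 0, 0.0988 and 0.127 CPM in Mppif-1 against 8.55, 7.06 and 7.59 CPM in TAK-1 (log2 difference -6.64 ± 0.65, edgeR adjusted p = 4.14e-10). At 24 °C the ranges overlapped: Mppif-1 had 6.85, 7.09 and 10.5 CPM and TAK-1 15.6, 16.5 and 9.65 CPM, a log2 difference of -0.77 ± 0.36 that missed the threshold (edgeR adjusted p = 0.137). Of the 3 Mpphy-1 libraries at 16 °C and light 10, 1 held 0.0706 CPM and the others 0, and Mphy5-1 held 2.44, 2.57 and 4.95 CPM.

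A pair of identifiers from the same prefix, Mp5g13720 and Mp5g09840, had the largest reductions when the temperatures were averaged. Mp5g13720 was at 0.0983, 0.469 and 0.380 CPM in Mppif-1 and 35.7, 23.9 and 24.7 CPM in TAK-1 at 16 °C. At 24 °C it was at 12.6, 12.2 and 11.8 CPM in Mppif-1 and 33.7, 33.1 and 32.2 CPM in TAK-1. The naming rule for the average asked for no overlap at both temperatures. The averaged log2 difference was -3.95 ± 0.26 (n = 6 against 6, edgeR adjusted p = 5.74e-14). For Mp5g09840 the Mppif-1 libraries held 1.18, 1.53 and 1.14 CPM at 16 °C and 10.9, 13.5 and 17.2 CPM at 24 °C. TAK-1 held 84.6, 64.7 and 71.7 CPM and then 52.9, 67.8 and 48.1 CPM. Its averaged log2 difference was -3.93 ± 0.23 (edgeR adjusted p = 2.27e-15). In TAK-1 neither gene passed the test for warmth (edgeR adjusted p = 0.524 and 0.232), while in Mppif-1 both rose with it, by 5.27 ± 0.44 and 3.43 ± 0.36 on the log2 scale (edgeR adjusted p = 9.37e-12 and 1.21e-09). Mpphy-1 at 16 °C and light 10 was low in both, with at most 0.412 CPM of Mp5g13720 and at most 4.52 CPM of Mp5g09840.

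Among genes raised at both temperatures, Mp1g28150 had the largest averaged difference, 2.72 ± 0.51 (log2, edgeR adjusted p = 5.71e-05). Its levels were 15.5, 11.3 and 21.0 CPM in Mppif-1 and 2.17, 2.06 and 2.31 CPM in TAK-1 at 16 °C. At 24 °C Mppif-1 held 8.07, 4.03 and 4.72 CPM and TAK-1 0.975, 0.834 and 1.03 CPM. The call of Mp1g28150 at 24 °C alone (log2 2.57 ± 0.72, edgeR adjusted p = 0.0101) was lost with DESeq2, whose adjusted p was 0.0726.

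Mp3g14660 was raised in the warm and not called in the cool. The Mppif-1 libraries at 24 °C held 37.7, 29.3 and 31.0 CPM and the TAK-1 libraries 4.64, 4.82 and 7.32 CPM, a log2 difference of 2.54 ± 0.19 (edgeR adjusted p = 2.03e-12). At 16 °C the levels were 10.1, 10.8 and 9.27 CPM in Mppif-1 and 9.58, 8.51 and 8.41 CPM in TAK-1 (log2 0.19 ± 0.18, edgeR adjusted p = 0.426). The change of the line difference with temperature was itself called, at 2.36 ± 0.25 (log2, edgeR adjusted p = 5.76e-09). Warmth raised the gene in Mppif-1 by 1.70 ± 0.18 and lowered it in TAK-1, where the log2 change was -0.66 ± 0.18 (edgeR adjusted p = 5.26e-10 and 0.00329). At light 100 the line difference was 1.72 ± 0.18 at 24 °C (edgeR adjusted p = 2.99e-09) and 0.31 ± 0.18 at 16 °C (edgeR adjusted p = 0.170). The light 100 levels do not enter the differences at light 10, but the tests share the spread estimate of the fit. At light 10 and 24 °C Mphy5-1 held 27.2, 24.6 and 25.1 CPM and Mpphy-1 13.7, 10.2 and 15.1 CPM, also above TAK-1. At light 10 and 16 °C Mphy5-1 held 11.6, 11.7 and 12.9 CPM and Mpphy-1 11.3, 8.48 and 11.85 CPM.

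**Figure D2:**
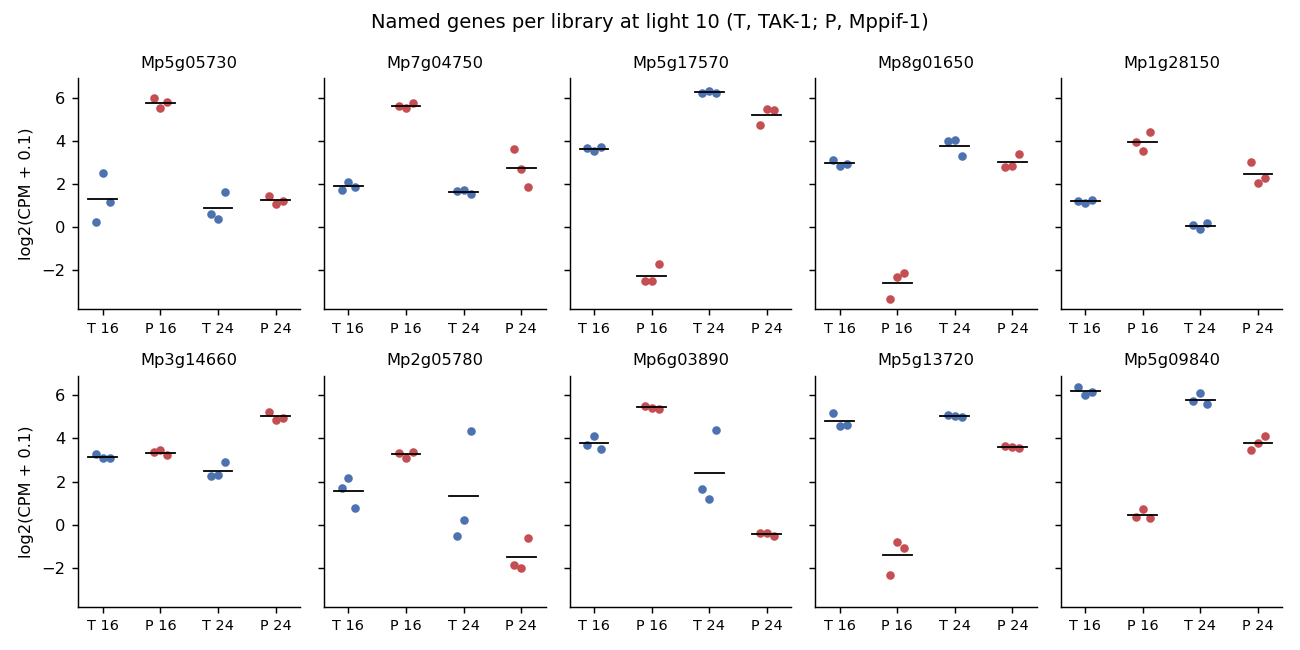
Level of 10 genes in each TAK-1 (T, blue) and Mppif-1 (P, red) library at light 10, by temperature in °C, as log2 of CPM plus 0.1; points are libraries and bars the means of 3. Mp5g17570 and Mp8g01650 lie near the floor in Mppif-1 at 16 °C alone, Mp3g14660 rises in Mppif-1 at 24 °C, and TAK-1 replicate 3 at 24 °C lies above its group for Mp2g05780 and Mp6g03890.

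The largest reductions at 24 °C were in Mp2g05780 and Mp6g03890, and both were sized by a library that stood apart. Mp2g05780 was at 0.174, 0.147 and 0.560 CPM in Mppif-1 and at 0.594, 1.07 and 20.0 CPM in TAK-1, where the last value is replicate 3. The log2 difference was -4.62 ± 0.91 (edgeR adjusted p = 0.000235), and without that library it was -1.51 and not called (edgeR adjusted p = 0.143). Without Mppif-1 replicate 3 at 24 °C it was -5.47. Fitted on the compared libraries alone it also missed the threshold (edgeR adjusted p = 0.0528). Mp6g03890 was at 0.670, 0.660 and 0.587 CPM in Mppif-1 and at 3.09, 2.16 and 20.8 CPM in TAK-1. Its log2 difference of -3.76 ± 0.68 (edgeR adjusted p = 8.43e-05) shrank to -2.03 without that library and was still called (edgeR adjusted p = 0.0122). At 16 °C, in contrast, Mppif-1 held more of Mp6g03890, with 45.9, 43.2 and 40.8 CPM against 13.0, 17.3 and 11.5 CPM in TAK-1 (log2 1.64 ± 0.51, edgeR adjusted p = 0.00944).

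The line difference at 16 °C and that at 24 °C come from separate libraries, so they can be laid side by side. Across the 15432 genes tested, which are not independent replicates, Pearson's r between them was 0.157 and Spearman's rho 0.278. Genes called at both temperatures numbered 2135. Of the genes called at 16 °C, 32.0% were called at 24 °C, against 20.5% of all genes tested. Of those called at 24 °C, 67.4% were called at 16 °C, against 43.2% of all genes tested. Of the 2135, 970 were higher in Mppif-1 at both temperatures and 822 lower at both. A further 197 were higher at 16 °C and lower at 24 °C, and 146 were lower at 16 °C and higher at 24 °C. Genes with the same direction at both temperatures thus outnumbered those with opposite ones.

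The change of the line difference between the temperatures was tested directly. It was called for 3343 genes, 21.7% of those tested, with 1934 differences more positive at 24 °C and 1409 more negative. Among the 1934, which the test chose by the very values given next, the median line difference was -0.72 at 16 °C and 0.05 at 24 °C, so that most were lower in cool Mppif-1 and close to TAK-1 in the warm. Among the 1409, the medians were 0.47 and -0.14. Past an absolute log2 of 1 there were 743 more positive and 428 more negative genes.

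Mp8g01650 and Mp5g17570, described above, had the largest positive changes, 5.87 ± 0.80 and 5.70 ± 0.49 (log2, edgeR adjusted p = 1.15e-06 and 9.02e-11). The largest negative ones were those of Mp2g05780 (-6.28 ± 1.17, edgeR adjusted p = 0.000115) and Mp8g12160 (-6.16 ± 0.99, edgeR adjusted p = 1.58e-05). Mp8g12160 was at 36.6, 42.6 and 34.0 CPM in Mppif-1 and at 2.48, 3.86 and 2.58 CPM in TAK-1 at 16 °C. At 24 °C Mppif-1 held 0.348, 0.342 and 0.427 CPM and TAK-1 0.904, 0.603 and 4.81 CPM, so the order of the lines turned. Without TAK-1 replicate 3 at 24 °C the change was -4.68 for Mp8g12160 and -3.17 for Mp2g05780, both still called. Without Mppif-1 replicate 3 the change was -7.12 for Mp2g05780 (at 24 °C) and 6.33 for Mp5g17570 (at 16 °C). At 16 °C and light 10 Mpphy-1 held at most 0.121 CPM of Mp8g12160, far below Mppif-1, and Mphy5-1 held 3.53, 2.43 and 2.30 CPM.

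**Figure D3:**
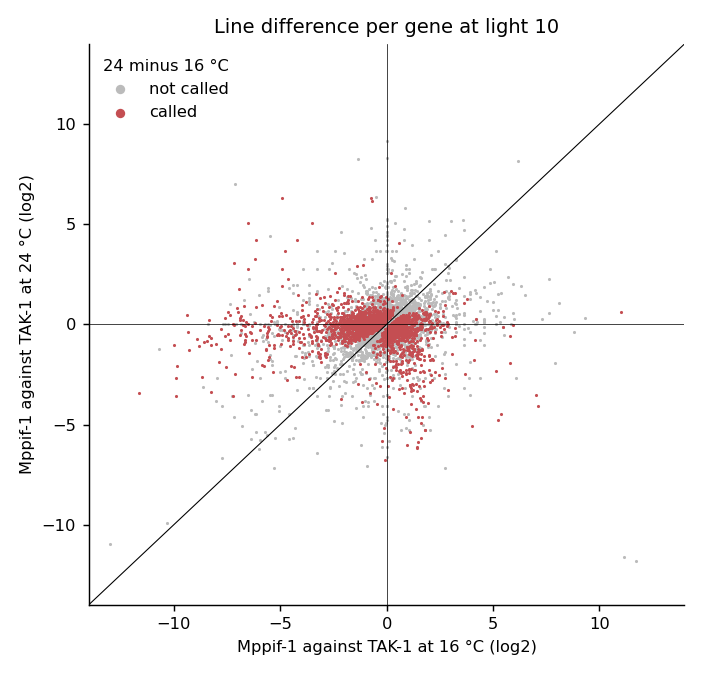
Log2 difference of Mppif-1 against TAK-1 at 16 °C (x axis) and at 24 °C (y axis) for the 15432 genes tested at light 10; red points are the 3343 genes whose difference changed between the temperatures, and the diagonal marks equal differences. Genes spread further along the x axis, to the left above all, and the correlation across genes is 0.157.

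The libraries at light 100 allowed these lists to be followed in samples whose levels did not enter the differences that chose them. The spread estimate of the fit was shared. The 1934 genes with a more positive difference at 24 °C had a median change of 0.18 at light 100, against 0.00 over all genes tested, and 27.1% of them were called in that direction there, against 11.4% of all genes. Their median line difference at light 100 was -0.17 at 16 °C and 0.04 at 24 °C. The 1409 genes with a more negative difference had a median change of 0.00 at light 100. Of these, 14.5% were called in the same direction and 22.4% in the opposite one, against 8.51% and 11.4% of all genes. The median of the first list thus lay above that of all genes at the higher light level, and the median of the second lay at it. The difference between the lists was not tested.

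Warming from 16 to 24 °C changed transcript levels widely in both lines. In TAK-1, 6599 genes were called, 42.8% of those tested, with 3259 higher and 3340 lower at 24 °C. In Mppif-1 there were 7458, or 48.3%, with 3926 higher and 3532 lower. Past an absolute log2 of 1, TAK-1 had 595 higher and 629 lower genes and Mppif-1 had 1075 and 758. The test of whether the responses differ is the one given above, with 3343 genes.

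Genes called in both lines numbered 4328. Of the genes called in TAK-1, 65.6% were called in Mppif-1, against 48.3% of all genes tested. Of those called in Mppif-1, 58.0% were called in TAK-1, against 42.8% of all genes tested. The direction was shared by 3854 of the 4328 and opposite in 474. Across all genes tested Pearson's r between the warmth responses was 0.440 and Spearman's rho 0.480, from libraries that the lines do not share.

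The strongest rises with warmth in Mppif-1 were in genes with almost no counts in the cool. Mp2g26460 had 0 counts in all 3 Mppif-1 libraries at 16 °C and 38.8, 7.19 and 10.7 CPM at 24 °C, which is at least 760-fold higher against a floor of 3 counts over the 3 libraries. Mp6g03120 had 2 counts over the cool libraries and 44.2, 15.6 and 14.8 CPM in the warm ones, a ratio of 1500 with an exact 95% Poisson interval from 415 to 12400 that covers counting error only. Both passed edgeR's test (adjusted p = 0.000201 and 4.72e-05). The warm libraries differed several-fold from each other, with replicate 1 the highest for both genes. Without replicate 1 the fitted log2 changes, which are no bounds, moved from 12.67 to 11.59 for Mp2g26460 and from 10.32 to 9.61 for Mp6g03120, both still called. Without replicate 2 at 16 °C, which holds both counts of Mp6g03120, its fitted change was 13.07. Both genes were also called higher with warmth in TAK-1 (log2 5.175 ± 1.57 and 6.808 ± 1.63, edgeR adjusted p = 0.00884 and 0.00107). Replicate 3 held the highest warm TAK-1 levels, 19.1 and 28.7 CPM. The change of the line difference was called for neither (edgeR adjusted p = 0.466 and 0.73). At light 100 the Mppif-1 means were 51.0 and 28.0 CPM at 16 °C and 3.88 and 4.62 CPM at 24 °C.

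Falls with warmth in Mppif-1 were steepest in Mp8g12160 (-6.66 ± 0.80, edgeR adjusted p = 2.34e-08) and Mp5g02510. The latter went from 130, 113 and 95.4 CPM to 1.07, 1.54 and 0.774 CPM, or -6.63 ± 0.27 on the log2 scale (edgeR adjusted p = 7.03e-20). In TAK-1 it went from 43.5, 48.4 and 41.8 CPM to 4.59, 5.56 and 6.16 CPM, a smaller fall of -3.03 ± 0.22 (log2, edgeR adjusted p = 2.89e-13). Mppif-1 therefore held more of Mp5g02510 than TAK-1 in the cool and less in the warm, and the responses differed by -3.60 ± 0.34 (edgeR adjusted p = 5.11e-10).

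In TAK-1 the steepest falls with warmth were in Mp6g13520 and Mp5g07750. Mp6g13520 went from 16.6, 19.2 and 20.9 CPM to 0.618, 0.371 and 0.547 CPM (log2 -5.20 ± 0.30, edgeR adjusted p = 6.39e-16). In Mppif-1 it was already low in the cool, at 0.762, 0.691 and 1.06 CPM, and went to 0.124, 0.122 and 0.107 CPM. At 16 °C and light 10 Mpphy-1 held 0.824, 0.873 and 0.663 CPM and Mphy5-1 3.11, 2.67 and 3.43 CPM, also below TAK-1. Mp5g07750 went from 17.9, 12.1 and 17.7 CPM to 1.09, 0.788 and 0.593 CPM in TAK-1 (log2 -4.26 ± 0.42, edgeR adjusted p = 5.15e-10). Its Mppif-1 levels were 2.65, 0.963 and 1.14 CPM in the cool and 2.16, 2.35 and 2.54 CPM in the warm, or 0.56 ± 0.40 on the log2 scale, which was not called (edgeR adjusted p = 0.253). The responses of the lines differed by 4.83 ± 0.57 for Mp5g07750 and 2.40 ± 0.68 for Mp6g13520 (edgeR adjusted p = 7.78e-08 and 0.00828).

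The strongest rises with warmth in TAK-1, in Mp8g03450 and Mp1g02420, came from the library that stood apart. Both genes had 0 counts in the 3 cool TAK-1 libraries. At 24 °C Mp8g03450 was at 0.262, 0.185 and 32.5 CPM and Mp1g02420 at 0.0713, 0.209 and 26.8 CPM, with the high value in replicate 3 each time. The means were at least 436-fold and 359-fold higher than the floor of 3 counts over the 3 cool libraries (edgeR adjusted p = 0.0112 and 0.00782). Without replicate 3 the fitted log2 changes, which are no bounds, dropped from 11.89 to 6.28 and from 11.61 to 5.63. Neither was then called (edgeR adjusted p = 0.552 and 0.611), and in a fit on the compared libraries alone neither was called either (edgeR adjusted p = 0.0985 and 0.0972).

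A wider set of genes had this pattern. Chosen after the values were seen, 43 genes had at least 5 CPM in TAK-1 replicate 3 at 24 °C and at least 10 times the level of both other replicates, where the same rule gave 0 and 5 genes for replicates 1 and 2 of that group and 20 for Mppif-1 replicate 1 at 24 °C. It gave at most 5 genes for any library at 16 °C and 3 each for the remaining Mppif-1 libraries at 24 °C. The median level of the 43 genes was 0.523, 0.464 and 14.5 CPM in the warm TAK-1 libraries. In the warm Mppif-1 libraries it was 18.7, 3.84 and 4.75 CPM. At 16 °C it lay between 0.0508 and 0.223 CPM in TAK-1 and between 0.123 and 0.304 CPM in Mppif-1. TAK-1 replicates 1 and 2 were thus below all warm Mppif-1 libraries and replicate 3 was among them.

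The line difference of these 43 genes at 24 °C rested on that library. With it, their median log2 difference was 1.25, and 0 were called higher and 4 lower in Mppif-1. Without it, the median was 4.28, and 35 were called higher and 3 lower. These values describe a set that was chosen on one of the groups compared and test nothing. The 2 named genes Mp8g03450 and Mp1g02420 belong to the set, as do Mp2g26460, Mp6g03120 and Mp2g05780.

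Libraries that the choice did not use gave the following levels. At light 100 and 24 °C the median of the 43 genes was 0.11, 0.0642 and 0.129 CPM in TAK-1 and 6.02, 1.10 and 6.64 CPM in Mppif-1, without overlap. At light 100 and 16 °C it was 28.9, 5.91 and 6.68 CPM in TAK-1 and 24.5, 3.51 and 44.1 CPM in Mppif-1, where the lines overlapped. In Mpphy-1 at light 10 it was 3.88, 5.19 and 4.92 CPM at 16 °C and 146, 61.0 and 170 CPM at 24 °C, and replicates 1 and 3 of the latter were the highest of the 48 libraries. In Mphy5-1 at light 10 and 24 °C it was 0.486, 5.84 and 0.854 CPM, so that 1 library of 3 was again higher than its group. No marker of another tissue, stage or organism is paired with these identifiers, and what sets the libraries apart was not tested.

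**Figure D4:**
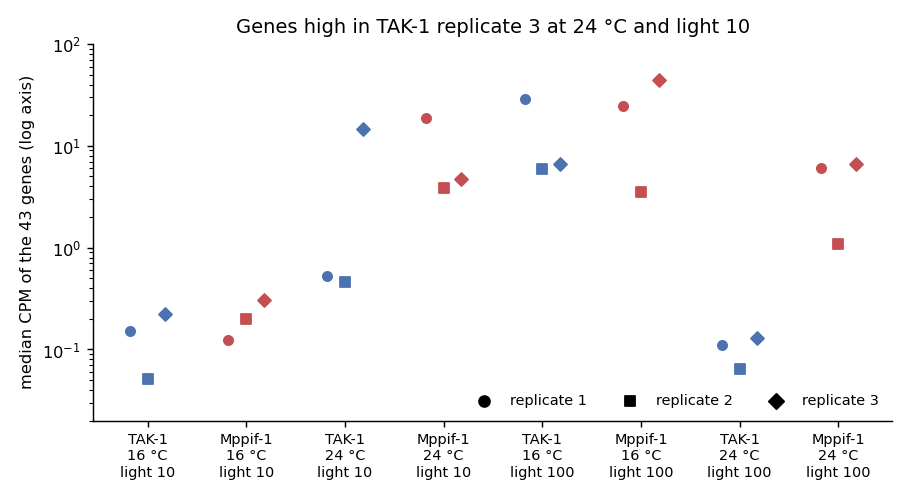
Median level, in CPM on a log axis, of 43 genes that were chosen for a high level in TAK-1 replicate 3 at 24 °C and light 10, in each TAK-1 (blue) and Mppif-1 (red) library at light 10 and light 100; the symbol gives the replicate. The chosen library lies at 14.5 CPM and the other warm TAK-1 libraries at light 10 at 0.523 and 0.464 CPM, while all warm Mppif-1 libraries at light 10 lie at 3.84 CPM or above.

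The higher light level served as the reference for what is common to dim and brighter light. At light 100 the averaged line difference was called for 6388 genes, 41.4% of those tested. The 3335 of these that were higher in Mppif-1 had, at light 10, a median line difference of 0.24 at 16 °C and 0.21 at 24 °C, against 0.03 and 0.01 over all genes tested. On the average of the temperatures 90.1% of them lay above 0 and 63.6% were called higher, against 52.1% and 20.7% of all genes. The 3053 that were lower had medians of -0.22 and -0.23, with 58.5% called lower on the average against 21.1% of all genes. Across all genes, the averaged difference at light 10 and that at light 100 had a Pearson's r of 0.415 and a Spearman's rho of 0.545. Most genes that separated the lines at light 100 therefore leaned the same way at light 10, by small amounts.

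Genes that warmth changed in TAK-1 at light 100 were followed in the same way. The warmth response at light 100 was called for 8705 genes in TAK-1, 56.4% of those tested. The 4142 that were higher had a median warmth response at light 10 of 0.27 in TAK-1 and 0.28 in Mppif-1. The 4563 that were lower had medians of -0.23 and -0.24. The medians of the difference between the lines were -0.01 and -0.02, as against -0.01 over all genes, and the first of these changed sign under some settings and stayed within 0.02 of 0. Within the higher list, the test of the difference called 569 of the 4142 genes more positive in Mppif-1 and 372 more negative, or 13.7% and 8.98%, against 12.5% and 9.13% of all genes. Within the lower list it called 638 of the 4563 genes more positive and 637 more negative, or 14% each, so the share of more negative genes was above that of all genes. Across all genes, the TAK-1 warmth responses at light 100 and light 10 had a Pearson's r of 0.0453 and a Spearman's rho of 0.47. For TAK-1 at light 100 and Mppif-1 at light 10 they were 0.123 and 0.454.

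**Figure D5:**
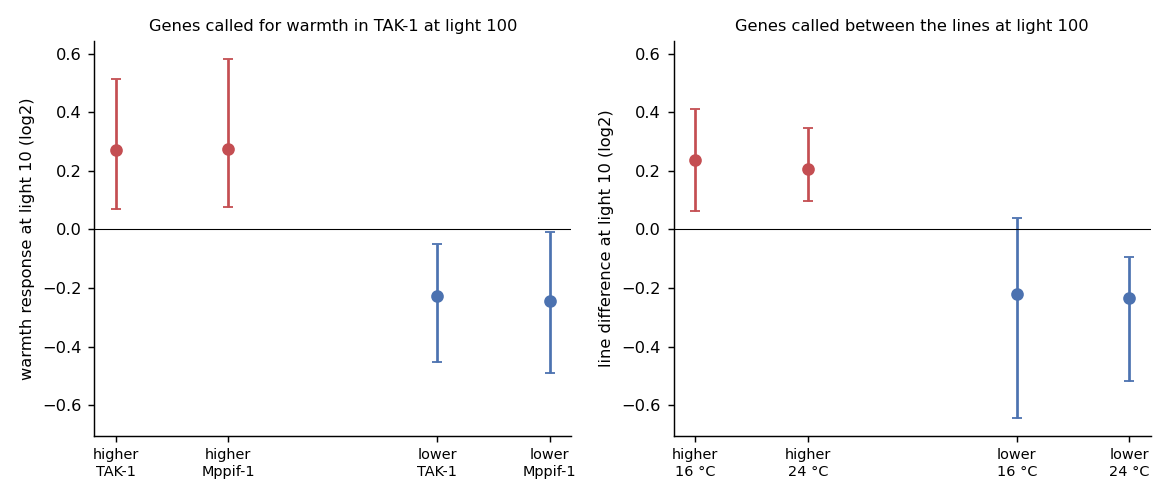
Median and quartiles (bars) of log2 differences at light 10 for lists of genes called at light 100; left, the warmth response of each line for genes higher (4142) or lower (4563) with warmth in TAK-1; right, the line difference at each temperature for genes higher (3335) or lower (3053) in Mppif-1. The medians of the left panel are 0.27 and 0.28 for the higher list and -0.23 and -0.24 for the lower list.

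Whether the averaged line difference itself depended on light was tested too. It was called for 2405 genes, or 15.6% of those tested, of which 948 had a more positive difference at light 10 and 1457 a more negative one. Mp2g13460 had the largest positive change, 3.88 ± 0.43 (log2, edgeR adjusted p = 3.28e-08). At light 10 and 16 °C it was at 5.80, 8.57 and 3.55 CPM in Mppif-1 and 18.2, 24.5 and 15.7 CPM in TAK-1. At light 100 and 16 °C Mppif-1 held 0.432, 0.490 and 0.459 CPM and TAK-1 166, 178 and 99.8 CPM. The large gap between the lines in brighter light and the cool was much smaller in dim light. At 24 °C the lines differed by 1.41 ± 0.41 at light 10 (edgeR adjusted p = 0.0114) and by 0.27 ± 0.43 at light 100 (edgeR adjusted p = 0.727).

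Mp7g13960 followed, with a change of 2.79 ± 0.51 (edgeR adjusted p = 0.000155). In the cool at light 10 it was at 37.0, 26.1 and 24.5 CPM in Mppif-1 and 8.42, 16.9 and 10.8 CPM in TAK-1, whereas at light 100 Mppif-1 held 2.26, 2.71 and 1.62 CPM and TAK-1 32.0, 26.6 and 35.1 CPM. At 16 °C the order of the lines was thus opposite at the 2 light levels. At 24 °C Mppif-1 lay below TAK-1 at both, with 0.869, 0.611 and 0.614 CPM against 1.95, 1.46 and 1.53 CPM at light 10 (log2 -1.23 ± 0.57, edgeR adjusted p = 0.133) and a log2 difference of -1.70 ± 0.53 at light 100 (edgeR adjusted p = 0.0170).

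On the negative side, Mp5g17570 changed by -3.33 ± 0.29 and Mp8g00400 by -3.11 ± 0.23 (edgeR adjusted p = 2.55e-10 and 4.07e-12). At light 100 and 16 °C Mp5g17570 was at 11.7, 15.0 and 6.64 CPM in Mppif-1 and 18.8, 19.0 and 20.6 CPM in TAK-1, so its near absence from Mppif-1 was seen in dim light. Mp8g00400 in dim light was at 6.86, 7.31 and 6.69 CPM in Mppif-1 and 61.8, 51.4 and 39.9 CPM in TAK-1 at 16 °C. At 24 °C it was at 7.23, 8.99 and 6.06 CPM in Mppif-1 and 23.4, 20.6 and 21.4 CPM in TAK-1. At light 100 its line difference was -0.20 ± 0.21 at 16 °C (edgeR adjusted p = 0.468) and 2.00 ± 0.25 at 24 °C (edgeR adjusted p = 1.68e-07), where Mppif-1 held the higher levels.

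Complete absence of a transcript from a whole line was rare under a strict rule, which does not count genes with a few reads in the lower line. With at least 10 counts in all 6 libraries of a line and 0 in all 6 of the other as the rule, Mp7g06970 was the only gene found, and it was present in TAK-1. Its counts were 24, 32 and 17 at 16 °C and 11, 16 and 11 at 24 °C in TAK-1, a low level of 0.454 CPM on average and at least 36.2-fold above the floor of 3 counts over the 6 Mppif-1 libraries. At light 100 the Mppif-1 libraries held 10 counts of it together. At light 10 the Mpphy-1 libraries held 0 and the Mphy5-1 libraries 22. No gene was present in Mppif-1 alone by this rule.

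The identifiers carry a prefix that follows the assembled sequence they lie on, with MpVg for the V chromosome of male plants. The share of genes called at 16 °C lay between 41.0% and 47.0% for the prefixes Mp1g to Mp8g. It was 12 of 71 genes, 16.9%, for MpVg, and 3 of 71, 4.23%, at 24 °C. The MpVg genes summed to 1840 to 2210 CPM in the TAK-1 libraries (median 1940) and to 1750 to 3190 CPM in the Mppif-1 libraries (median 2270), so transcripts with that prefix were present in all 12. The MpVg genes were expressed at low levels, with a median of 1.71 CPM over the 12 libraries against 14.8 CPM for all genes tested. When all genes were split into 4 equal classes by level, 21.2% of the lowest class and 55.7% of the highest were called at 16 °C. At 24 °C the shares were 6.09% and 36.0%. The MpVg shares lay below those of the lowest class, and whether level accounts for them was not tested.

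Large differences in both directions took the highest share of Mp5g among the prefixes Mp1g to Mp8g. Of the 647 genes lower by more than 1 on the average of the temperatures, 172 carried the prefix Mp5g, which is 8.99% of its 1913 genes tested, against 4.19% of all genes tested and 2.16% to 4.57% for the other prefixes from Mp1g to Mp8g. The share was 7.81% of the 128 genes tested with the prefix Mpzg. Genes higher by more than 1 made up 1.88% of Mp5g on the average, against 1.14% of all genes. At 16 °C alone, lower genes past that size were 11.6% of Mp5g against 7.06% of all genes, and higher ones 4.23% against 2.73%. The median level of Mp5g genes was 11.3 CPM over the 12 libraries, against 14.8 CPM for all genes tested. Large averaged differences were more frequent at low levels. The lowest of the 4 level classes held 337 lower and 97 higher genes past that size, and the highest held 39 and 18, of 3858 genes each. The shares by prefix are descriptions, and neither they nor the part of level in them was tested. In 303 windows of 50 tested genes in identifier order, the share called on the average had a median of 42.0% and a range from 12% to 66%. The highest was in the window from Mp5g12060 to Mp5g12760, where 33 of 50 genes were called, 24 of them lower. All 4 windows with at least 10 genes lower by more than 1 were of Mp5g, and the median over all windows was 2. The largest number of genes higher by more than 1 in a window was 10, also in Mp5g, and the median over all windows was 0. Whether neighbouring genes of near-identical sequence share reads could not be checked without the genome, so such runs may count related copies more than once.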

How the data were processed

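RNA was taken from thalli and sequenced as paired reads, per the labels' protocols. The submitters' processing notes list HISAT2 2.1.0 and FastQC 0.11.5. For the counter, the genome build, the annotation and the use of strand, the choice is not given in the sources used here. Values are raw counts per gene, deposited by the authors in a table of 20574 genes and 48 Marchantia libraries; tables of other species were not used.

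All 48 libraries were fitted together with edgeR 4.0.16 in R 4.3.3 (filterByExpr by group with a minimum count of 10, TMM scaling, robust quasi-likelihood F test), with 1 mean for each of 16 groups and 32 residual degrees of freedom. The common biological coefficient of variation was 0.139. Benjamini-Hochberg adjustment ran over the 15432 genes tested, and genes were called at an adjusted p under 0.05. The standard error is the log2 difference divided by the square root of F. Counting intervals and floors cover counting error only.

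For each of 7 comparisons the text names at most 2 genes in each direction: the largest log2 differences among called genes with a mean of at least 5 CPM over the 12 libraries and replicates that do not overlap between the groups compared. For the average, no overlap was asked at both temperatures; for the change between temperatures, at the temperature with the larger line difference; and for the change with light, at both temperatures at light 10. Gene lists, rules and comparisons were chosen with earlier results of these data known. DESeq2 1.42.0, other scalings and filters, a replicate block and leaving out each of the 12 libraries were tried as alternatives.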

Additional observations from a re-analysis of the deposited data

Results flagged for a closer look

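The difference between Mppif-1 and TAK-1 at light 10 was not the same at both temperatures for 3343 genes, by the edgeR test of the change itself (n = 3 libraries a group). The change from 16 to 24 °C was 5.87 for Mp8g01650 and 5.70 for Mp5g17570 on the log2 scale, and -6.28 for Mp2g05780 and -6.16 for Mp8g12160. For the last pair TAK-1 replicate 3 at 24 °C was above the rest of its group, and without it the values were -3.17 and -4.68.

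The averaged line difference was not the same at light 10 and light 100 for 2405 genes, by the edgeR test of that change. On the log2 scale the change was 3.88 for Mp2g13460 and 2.79 for Mp7g13960, and -3.33 for Mp5g17570 and -3.11 for Mp8g00400.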

How the results depend on the processing

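Counts of called genes stayed within 1.5 times under every scaling, filter, tool and left-out library tried; a minimum absolute log2 of 1 left 1511, 449 and 823 genes at 16 °C, at 24 °C and on average. Leaving out 1 library at a time gave 5847 to 6658 genes at 16 °C, 2511 to 3159 at 24 °C and 2814 to 3154 for the change between temperatures. Replicate numbers did not pair the libraries (correlations of deviations from -0.223 to 0.240), and a replicate block gave 6685 and 3183 genes. Of the values of named genes under these alternatives, 551 kept their call and direction, 7 lost the call, all given above, and none reversed. For Mp2g05780, at 24 °C and for the change between temperatures, only 7 of the 8 settings other than a left-out library gave a value. The missing values are not counted.

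Medians of lists chosen at light 100 moved by less than 0.05. With the stricter filter they were 0.222 and 0.247 for the warmth response of the higher list in TAK-1 and Mppif-1, -0.215 for the lower list in Mppif-1, 0.199 and 0.201 for genes higher in Mppif-1 at 24 °C and on average, and -0.194 and -0.213 for those lower. With upper quartile scaling, genes higher in Mppif-1 had 0.225 at 24 °C, and those lower had -0.209 at 24 °C and -0.219 on average. At 24 °C the higher list had 0.202 with RLE scaling, 0.200 with the compared libraries only and 0.197 to 0.207 with a library left out. The median change between temperatures of the genes higher with warmth turned from -0.00531 to 0.00353 with upper quartile scaling and 0.0143 with the stricter filter, and ran from -0.0164 to 0.00425, through 0.00419 and 0.000197, with a library left out. The cause was not tested.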
